A study of Mus musculus with 17 samples.

Results

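The genes of cholesterol synthesis and its control were followed through the differentiation of mouse small intestinal organoids, with and without the Exportin 1 inhibitor KPT-330. They were the synthesis enzymes Hmgcs1, Idi1, Fdps, Fdft1, Sqle and Lss and the regulators Insig1 and Srebf2, 8 of the 26422 genes counted in the single-cell tables, and they were chosen by symbol. Organoids grown from the small intestine of male and female C57BL/6 mice without genetic modification, held in medium with EGF, Noggin and R-spondin 1 (ENR), were profiled by Seq-Well S3, a microwell method of single-cell RNA-seq that counts unique molecular identifiers (UMIs). At day 0 they were stem cell-enriched by CHIR99021, which activates Wnt signalling, and valproic acid (ENR+CV, 2 libraries). From then on valproic acid was replaced by DAPT, which blocks Notch signalling (ENR+CD), so all later samples carried both CHIR99021 and DAPT. At days 0.25, 1, 2, 3, 4 and 6 of this Paneth cell differentiation, 7 control libraries and 8 libraries with 160 nM KPT-330 were sampled. Controls had 2 libraries at day 6 and 1 at each other day, and KPT-330 had 2 libraries at days 3 and 6. All libraries of days 0.25 and 1 were labelled replicate 1, whereas those of days 2 and 4 and the day 3 control were labelled replicate 2. Each library pooled many organoids, and the labels do not say what separates replicates 1 and 2, so p-values measure the spread between these libraries, which may be technical. In the tests of KPT-330 with day as a term, that spread also holds differences of the effect between days.

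Cholesterol is built from acetyl-CoA through mevalonate, isoprenoid units, farnesyl diphosphate, squalene and lanosterol. The transcription factor SREBP2, encoded by Srebf2, switches on nearly all of these enzymes when membrane sterol is low, and INSIG1 holds its escort SCAP in the endoplasmic reticulum when sterol is plentiful. In the intestine the pathway supplies membranes for proliferating crypt cells, while absorptive enterocytes also take cholesterol up from the gut lumen and export it.

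SREBP2 is known to bind sterol regulatory elements, commonly beside binding sites of NF-Y and Sp1. The RefSeq promoter table of build GRCm38.p6, which spans 250 bases before to 50 after each gene's start, held 5 of the members (Hmgcs1, Idi1, Lss, Insig1 and Srebf2). Fdps, Fdft1 and Sqle were not in it. The 250 bases before the start in that table are printed for the 3 enzymes, to show where the searched motifs fall. For Idi1 and Lss the stretch runs past the gene's start in the GENCODE annotation (8885501 and 76531588), so its end lies inside that gene. All capitals of Idi1 lie past the GENCODE start. Hmgcs1 holds a match to the sterol regulatory element searched for, and Idi1 and Lss hold matches to the other boxes only. Capitals mark the sterol regulatory element TCACNCCAC, the NF-Y box CCAAT and the Sp1 box GGGCGG, each read on both strands.
Hmgcs1 (chr13:119690101-119690350, + strand): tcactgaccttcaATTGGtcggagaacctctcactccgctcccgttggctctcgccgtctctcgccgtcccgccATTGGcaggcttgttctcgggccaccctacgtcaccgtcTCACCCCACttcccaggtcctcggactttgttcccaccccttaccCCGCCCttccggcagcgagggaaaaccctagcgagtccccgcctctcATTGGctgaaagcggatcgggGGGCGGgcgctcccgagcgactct
Idi1 (chr13:8885356-8885605, + strand): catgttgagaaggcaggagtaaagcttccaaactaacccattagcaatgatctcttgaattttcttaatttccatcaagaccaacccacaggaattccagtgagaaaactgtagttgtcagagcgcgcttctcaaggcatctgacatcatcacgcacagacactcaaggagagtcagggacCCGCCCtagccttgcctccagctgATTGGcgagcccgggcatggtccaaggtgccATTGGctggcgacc
Lss (chr10:76531355-76531604, + strand): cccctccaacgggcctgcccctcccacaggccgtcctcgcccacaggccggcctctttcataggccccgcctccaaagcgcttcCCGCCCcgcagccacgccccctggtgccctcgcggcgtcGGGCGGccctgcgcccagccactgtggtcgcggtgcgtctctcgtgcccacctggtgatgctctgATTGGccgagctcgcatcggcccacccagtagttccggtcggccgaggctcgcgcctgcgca
The sterol regulatory element matched 1 of the 5 member promoters, Hmgcs1, where TCACCCCAC begins at -137, against 1.24% of all 32851 promoters. The NF-Y box matched 5 of 5, against 37.4% of all promoters, and the Sp1 box matched 5 of 5, against 35.7%. The 3 motifs share no bases in the printed stretches. Of 13 other synthesis enzymes with a promoter in the table, 12 held the NF-Y box, 12 the Sp1 box and 0 the sterol regulatory element. These matches describe letters in the window and do not show binding. Only the exact letters given were searched, so a promoter without a match is not shown to lack an element.

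After the authors' cell filter, 19877 cells with 114841033 UMIs remained, with 3458887 to 12433109 UMIs per library and a median of 2676 to 8463 UMIs per cell. No pair of libraries shared more than 1 cell barcode. All 6 epithelial markers were detected and summed to 3416 to 4672 UMIs per 1000000 in each library, against 3.50 to 71.8 for 6 immune markers, of which Tyrobp was at 0 throughout, and 0.711 to 3.87 for 6 mesenchymal markers. Xpo1, which encodes the drug's target, was higher with KPT-330 than in the control of the same day at every day, by 1.27 to 1.80 on the log2 scale. The members were counted at very different depth, from 819 UMIs in all for Idi1 to 32850 for Hmgcs1, so Idi1 carried the largest counting error of the 8, with 15 to 127 UMIs per library.

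In untreated organoids the synthesis enzymes were high in the first day and lower at the end. Hmgcs1, on chromosome 13 (119690379 to 119708260, + strand, build mm10), encodes the cytosolic synthase that condenses acetyl-CoA with acetoacetyl-CoA into HMG-CoA. Levels are given in CPM, the UMIs of a gene per 1000000 kept UMIs of the library. Hmgcs1 stood at 337 and 342 CPM in the day 0 libraries, at 447 at day 0.25, 367 at day 1, 262 at day 2, 355 at day 3 and 253 at day 4, and at 218 and 194 at day 6. Both day 6 libraries lay below every earlier untreated library. Lss, on chromosome 10 (76531588 to 76557138, + strand), encodes lanosterol synthase, which closes the sterol rings. It stood at 93.3 and 124 CPM at day 0, at 148 at day 0.25, 101 at day 1, 69.4 at day 2, 91.0 at day 3 and 76.7 at day 4, and at 51.5 and 56.6 at day 6. Its day 0 and day 6 libraries did not overlap either, and its day 0.25 library was again the highest.

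The other enzymes followed similar courses. Sqle (chromosome 15, 59315077 to 59331192, + strand) encodes squalene epoxidase, a rate-limiting oxygen-dependent step. Its level was 293 and 292 CPM at day 0, 385 at day 0.25, 253 at day 1 and 154 to 181 from day 2 to day 6. Fdps (chromosome 3, 89093588 to 89101959, - strand) encodes farnesyl diphosphate synthase, which feeds both sterols and protein prenylation. Its level was 56.9 and 69.3 at day 0, 92.5 at day 0.25, 77.8 at day 1 and 32.2 to 47.0 from day 2 on. Idi1 (chromosome 13, 8885501 to 8892451, + strand) encodes isopentenyl-diphosphate isomerase. It had 11.8 and 6.93 CPM in the day 0 libraries and 15.9 in that of day 0.25, whereas the day 6 libraries were at 3.78 and 3.38, counted from 47 and 15 UMIs. Fdft1 (chromosome 14, 63145150 to 63179578, - strand) encodes squalene synthase, the first step committed to sterols. It stood at 82.1 and 71.2 at day 0, at 115 at day 0.25, and at 61.6 and 47.3 at day 6. In all 6 enzymes the day 0.25 control library was the highest of the 9 untreated libraries. The control libraries of days 0.25 and 1 were replicate 1 and those of days 2, 3 and 4 replicate 2. A step between day 1 and day 2 therefore cannot be told apart from the change of replicate number.

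Of the regulators, Insig1 (chromosome 5, 28071363 to 28078662, + strand) stood at 104 and 96.6 CPM at day 0, at 82.9 to 109 from day 0.25 to day 3, and at 55.7 at day 4 and 62.5 and 61.3 at day 6. All 3 libraries from day 4 on lay below every earlier one. Srebf2 (chromosome 15, 82147181 to 82205379, + strand) varied least, with 76.7 and 95.8 in the day 6 libraries against 120 and 122 in those of day 0.

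**Figure D1:**
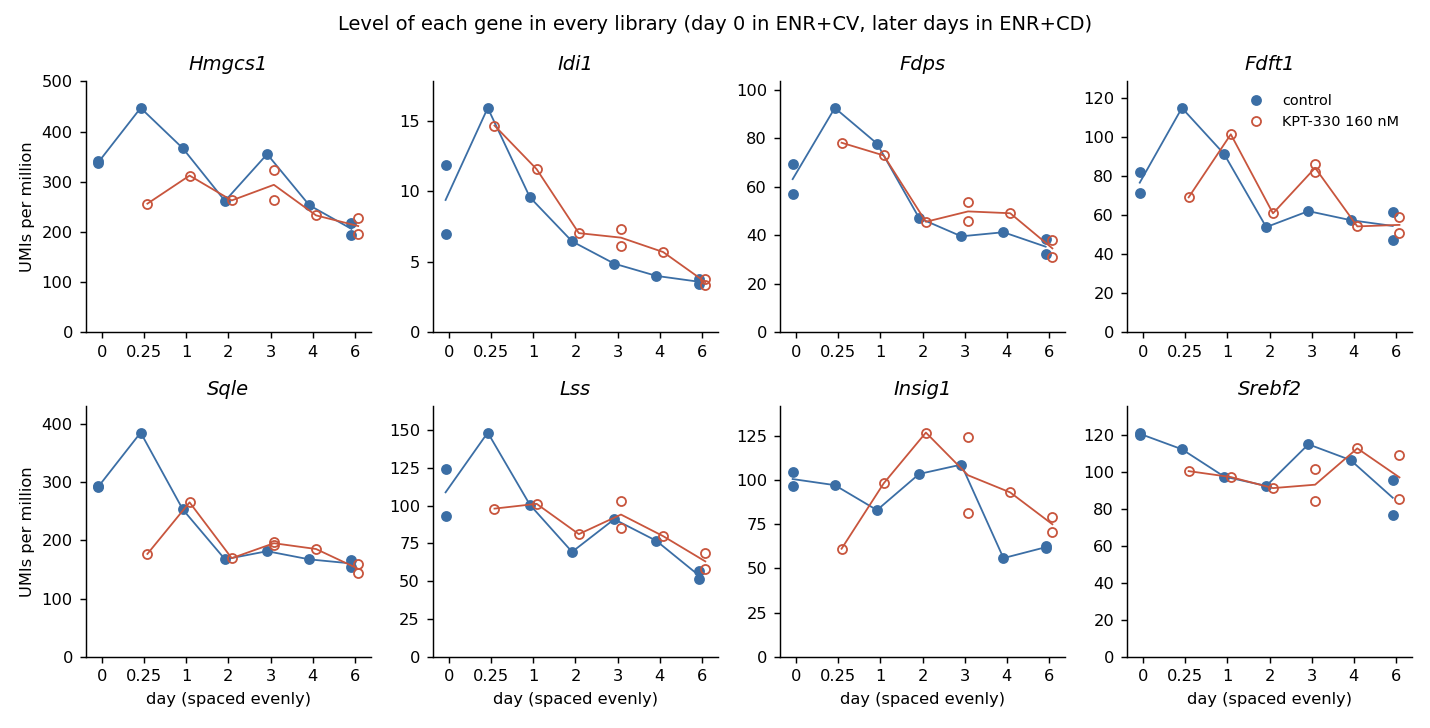
Level in CPM (vertical axes, from 0) of the 8 genes in each of the 17 libraries, against day (horizontal axes, days spaced evenly); filled blue points are untreated libraries, open red points KPT-330 libraries, and lines join the means. The enzymes peak in the day 0.25 control library (Hmgcs1 at 447, Sqle at 385) and are lowest late, and the KPT-330 library of that day lies below it in all 6.

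The change was tested with edgeR's quasi-likelihood test on counts summed per library, scaled by TMM (the trimmed mean of M values, which sets each library so that its middle genes do not change) and adjusted over all genes. Between day 6 and day 0, 6 of 8 members fell and 0 rose at an adjusted p under 0.05, against 20.2% of 13455 genes lower and 19.7% higher. The median member changed by -0.67 on the log2 scale, against 0.01 over all genes. Lss fell by 0.89 ± 0.16 (SE, edgeR adjusted p = 0.0016), Fdps by 0.73 ± 0.16 (adjusted p = 0.0045) and Sqle by 0.75 ± 0.17 (adjusted p = 0.0056). Idi1 fell by 1.23 ± 0.36 (adjusted p = 0.020), Hmgcs1 by 0.60 ± 0.19 (adjusted p = 0.025) and Insig1 by 0.58 ± 0.21 (adjusted p = 0.042). Fdft1 (-0.37 ± 0.19, adjusted p = 0.16) and Srebf2 (-0.38 ± 0.17, adjusted p = 0.093) did not pass. The count was 2 without either day 6 library and 3 without day 0 replicate 1, so it rests on each of these libraries.

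Medium and time changed together here and cannot be told apart, nor can, in summed libraries, fewer cells that express a gene from less RNA per cell. The makeup of the organoids moved with the members. Proliferating stem III-like cells made up 36.0% and 45.5% of the cells in the day 0 libraries and 3.47% and 2.67% at day 6. Stem II-like cells had shares of 42.8% and 37.0% against 2.45% and 5.63%, and Paneth-like ones of 0.565% and 0.751% against 28.9% and 24.7%. The part of this makeup in the summed result was not tested, but levels within types are given further on.

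A test for any difference among the 7 untreated time points called 6 of 8 members, which were the 6 enzymes, against 35.0% of genes. Its spread came from the groups with 2 libraries, which were day 0, the day 6 control, and KPT-330 at days 3 and 6. The untreated days between day 0 and day 6 had 1 library each and gave no spread of their own. Fdps (adjusted p = 0.0014), Lss (0.0028), Sqle (0.0036), Idi1 (0.014), Fdft1 (0.022) and Hmgcs1 (0.027) passed, and Insig1 (0.054) and Srebf2 (0.45) did not. The count was 5 with the replicate block, which lost Fdft1, and 4 to 7 over left-out libraries. Hmgcs1 was lost without either day 6 control library and Idi1 without replicate 1 of them, while Insig1 passed without either day 3 KPT-330 library, which entered the fit for its spread. For the 6 enzymes the log2 difference of day 0.25 from day 0 was 0.49 to 0.87, from 1 library, with no adjusted p under 0.05.

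Other genes of the pathway and its surroundings were taken from lists made for this work. The counts of these lists stand against 20.2% of all 13455 genes lower and 19.7% higher between day 0 and day 6. Of 15 other synthesis enzymes tested, 7 fell between day 0 and day 6 and 0 rose, with a median of -0.53 on the log2 scale. Acat2, which makes acetoacetyl-CoA, fell by 1.54 ± 0.17, Nsdhl by 1.28 ± 0.15, Lbr by 1.62 ± 0.21 and Mvd by 1.03 ± 0.20. Of 9 genes of fatty acid synthesis 6 fell, among them the desaturases Fads2 (-1.997 ± 0.18) and Fads1 (-1.40 ± 0.19), Acss2 (-1.24 ± 0.15) and Acaca (-0.89 ± 0.20). Of 9 uptake and transport genes 3 fell, Scarb1 and Stard4 among them, and Npc2 rose. The HDL receptor gene Scarb1 fell by 1.07 ± 0.19. Of 9 genes of efflux and esterification 3 rose, Abca1, Abcg1 and Abcg8. The exporter Abcg1 had only 3 and 1 UMIs in the day 0 libraries against 118 and 35 at day 6. Of 7 isoprenoid side-branch genes 1 fell, Pdss1 (-2.95 ± 0.23), which makes the tail of coenzyme Q. Of 5 other SREBP regulators none passed, with 1 at an unadjusted p under 0.05 by edgeR, and Srebf1 was at 0.04 ± 0.21 (adjusted p = 0.90).

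Few members passed the test for KPT-330 over the whole course. Over days 0.25 to 6, with day as a term, 1 of 8 members rose and 0 fell, against 14.4% of 12812 genes higher and 14.2% lower. Idi1 rose by 0.42 ± 0.15 on the log2 scale (edgeR adjusted p = 0.0488), at the edge of the threshold. Fdps (0.29 ± 0.11, adjusted p = 0.0505), Insig1 (0.41 ± 0.16, adjusted p = 0.066), Srebf2 (0.24 ± 0.10, adjusted p = 0.073), Lss (0.29 ± 0.12, adjusted p = 0.083) and Fdft1 (0.28 ± 0.14, adjusted p = 0.15) did not pass. Hmgcs1 (0.07 ± 0.13) and Sqle (0.15 ± 0.15) lay nearest to 0. The count of members raised was 7 without day 0.25. The Idi1 call was lost, leaving a count of 0, without day 2, 3, 4 or 6, without day 3 KPT-330 replicate 2, and without any 1 of the 4 day 6 libraries. It was also lost with DESeq2, with all barcodes within the limits and without Paneth-like cells.

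At day 0.25 the treated library was the lower of the pair for all 8 members. Hmgcs1 had 256 CPM with KPT-330 against 447 without, Sqle 177 against 385, Fdft1 69.1 against 115, Insig1 61.0 against 97.0 and Lss 98.0 against 148. On the TMM scale these log2 differences were -0.81, -1.13, -0.73, -0.67 and -0.60, while Fdps was at -0.25, Srebf2 at -0.17 and Idi1 at -0.12. Each condition had 1 library, so the difference has no replicate check. At day 1 the log2 differences were between -0.15 and 0.33 and at day 2 they were 0.15 to 0.49. The control library of day 0.25 was also the highest untreated library for each enzyme, and stem III-like cells made up 47.1% of it and stem II-like cells 35.7%, against 24.2% and 55.1% of the treated one. The part of that makeup in the difference was not tested.

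The treatment effect was then fitted separately for days 0.25 to 2 and days 3 to 6. In the early days 0 of 8 members rose or fell by edgeR, with 0 at an unadjusted p under 0.05 and 0 by DESeq2, against 0.351% of genes higher and 0.148% lower. In the late days 6 of 8 rose and 0 fell on the TMM scale, against 15.3% of genes higher and 13.6% lower. The median member was at 0.51, against 0.01 over all genes.

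Fdps had 39.5, 41.2, 32.2 and 38.3 CPM in the late control libraries (days 3, 4, 6 and 6) and 45.8, 53.8, 49.0, 31.1 and 38.0 with KPT-330 (days 3, 3, 4, 6 and 6). The treated libraries were higher at days 3 and 4 and overlapped the controls at day 6. After TMM scaling they read 35.5, 35.6, 31.6 and 35.8 against 52.8, 60.6, 54.6, 44.0 and 43.1, with no overlap, and the fitted rise was 0.54 ± 0.10 (edgeR adjusted p = 0.0021). Insig1 had 109, 55.7, 62.5 and 61.3 CPM in the controls and 81.1, 124, 92.9, 70.5 and 79.2 with KPT-330. Its treated libraries lay above the controls at days 4 and 6 and on both sides of the control at day 3, and it rose by 0.64 ± 0.18 (adjusted p = 0.021). Lss had 91.0, 76.7, 51.5 and 56.6 in the controls and 85.2, 103, 79.8, 57.8 and 68.5 with KPT-330, and rose by 0.51 ± 0.13 (adjusted p = 0.012). As for Insig1, its treated libraries lay above the controls of the same day at days 4 and 6 and on both sides of the control at day 3. Idi1 rose by 0.65 ± 0.19 (adjusted p = 0.024), Srebf2 by 0.38 ± 0.11 (adjusted p = 0.023) and Fdft1 by 0.50 ± 0.16 (adjusted p = 0.033). Sqle (0.41 ± 0.17, adjusted p = 0.082) and Hmgcs1 (0.29 ± 0.14, adjusted p = 0.15) did not pass. The late control libraries of day 6 are also those of the comparison with day 0, so the 2 results share samples.

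**Figure D2:**
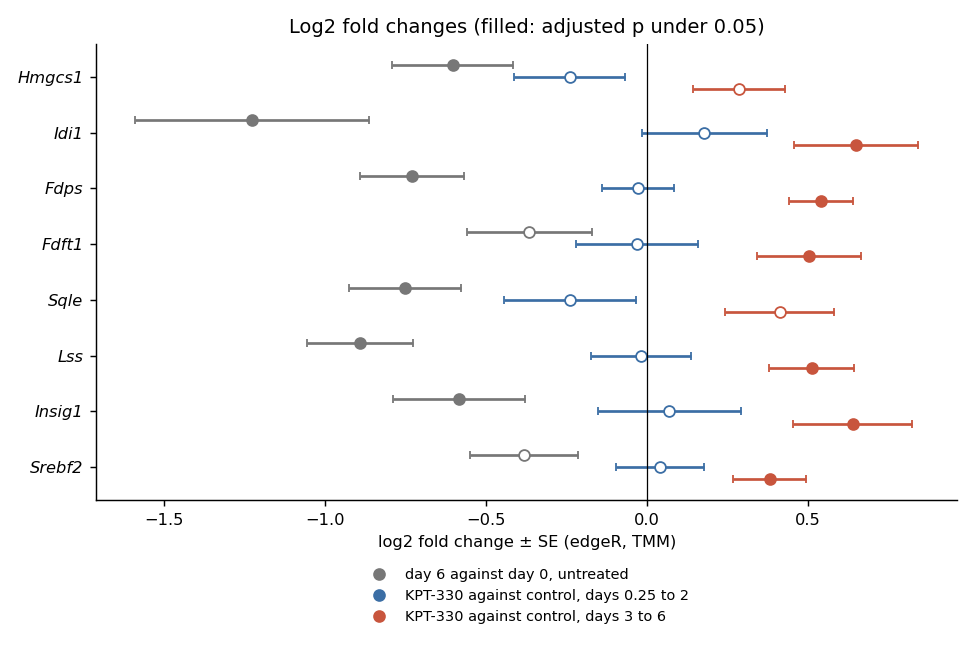
Log2 fold change with its SE (horizontal axis) of the 8 genes for day 6 against day 0 in untreated organoids (grey), and for KPT-330 against control in days 0.25 to 2 (blue) and days 3 to 6 (red); filled points have an edgeR adjusted p under 0.05. Grey points lie from -1.23 to -0.37, blue ones around 0 and red ones from 0.29 to 0.65, on the TMM scale.

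The late rise depended on what the libraries were scaled to. With library totals only, the median of all genes moved to -0.38 on the log2 scale and the members lay between -0.10 (Hmgcs1) and 0.27 (Idi1). None of the 8 was then called, with 0 at an unadjusted p under 0.05 by edgeR. With totals that left out the 100 most abundant genes 2 members were called, Fdps and Lss, and with TMM but without Paneth-like cells 3 were, Fdps, Lss and Insig1. Relative to the median of all genes each member's value hardly moved, for example 0.54 and 0.53 for Fdps and 0.28 and 0.28 for Hmgcs1 under TMM and library totals. The members were thus higher relative to the middle gene, while no rise in their share of all UMIs passed the test. The 100 most abundant genes took 35.1% to 41.2% of UMIs in the late controls and 40.1% to 55.5% in the late KPT-330 libraries, and the 10 Paneth markers summed to 11.9% and 12.1% against 18.1% and 18.2% at day 6. Their part in the result was not tested beyond these settings. The count was also 2 without day 4 or without day 6, and 3 without day 6 control replicate 2 or without day 6 KPT-330 replicate 1.

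**Figure D3:**
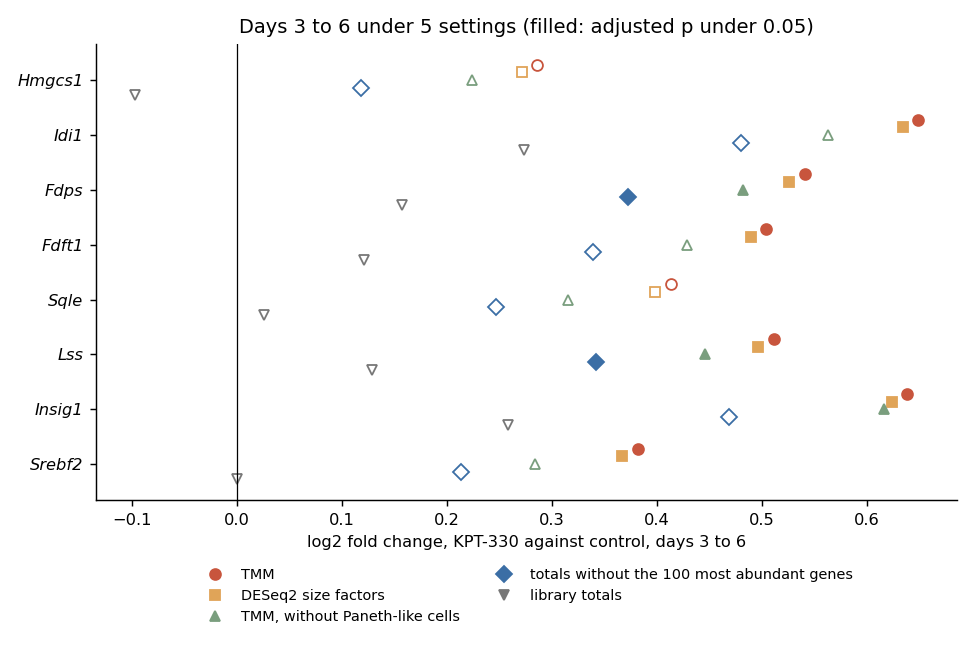
Log2 fold change of KPT-330 against control in days 3 to 6 (horizontal axis) for the 8 genes under 5 settings, shown by marker shape; filled markers have an edgeR adjusted p under 0.05. Under TMM 6 genes are filled, without Paneth-like cells 3, without the 100 most abundant genes in the totals 2, and with library totals none.

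The difference between the early and the late effect was itself tested. By edgeR it passed for 0 of 8 members, in either direction, and for 0% of genes higher and 0% lower. The estimates of early minus late were -0.34 to -0.65 on the log2 scale, and 4 members had an unadjusted p under 0.05, Fdps (0.0020), Lss (0.021), Sqle (0.029) and Hmgcs1 (0.035). The share of all genes at that unadjusted p is not given. DESeq2 called 0 members, so the effect of KPT-330 on these genes is not shown to differ between the periods.

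Of the listed genes around the members, the exporter genes Abcg5 and Abcg8 had the largest changes that passed over the whole course. The counts of these lists stand against 14.4% of all 12812 genes higher and 14.2% lower. Of 9 efflux and esterification genes 3 rose, Abca1, Abcg5 and Abcg8, and 0 fell. Abcg5 and Abcg8, which together pump sterols back into the lumen, rose by 1.13 ± 0.17 (edgeR adjusted p = 0.00080) and 0.92 ± 0.14 (adjusted p = 0.00088) on the log2 scale. Among 9 uptake and transport genes 5 rose and 1 fell. Npc1l1, the luminal cholesterol importer, rose by 0.63 ± 0.16 and Stard4 by 0.34 ± 0.10, while Scarb1 fell by 0.31 ± 0.10. Of 15 other synthesis enzymes 5 rose and 0 fell, among them the late sterol enzymes Sc5d (0.51 ± 0.13), Hsd17b7 (0.41 ± 0.11) and Nsdhl (0.22 ± 0.07). Srebf1 (0.04 ± 0.08, adjusted p = 0.72) did not pass, and was below 0 with library totals. Of 9 fatty acid synthesis genes Elovl6 rose by 0.54 ± 0.16, and Fads1 and Fads2 fell by 0.35 ± 0.09 and 0.38 ± 0.11. Of 7 side-branch genes 0 passed (2 at an unadjusted p under 0.05 by edgeR), and of 5 other SREBP regulators Insig2 rose. With library totals only, the rises of Abcg5 (0.86, adjusted p = 0.00097) and Abcg8 (0.64, adjusted p = 0.0033) still passed. Those of Npc1l1 (0.37, adjusted p = 0.075), Sc5d (0.24, adjusted p = 0.084), Hsd17b7 (0.15, adjusted p = 0.26), Stard4 (0.075, adjusted p = 0.54) and Elovl6 (0.27, adjusted p = 0.11) did not, and Nsdhl turned to -0.040 (adjusted p = 0.72). The falls of Fads1 (-0.61, edgeR adjusted p = 0.00089), Fads2 (-0.64, adjusted p = 0.0025) and Scarb1 (-0.575, adjusted p = 0.0036) passed on that scale too. The median of all genes was then at -0.27. Enterocyte-like cells, in which Abcg5, Abcg8 and Npc1l1 are known to act, made up 30.1% and 31.2% of the treated libraries at day 3 against 10.04% of the control, and 20.98% and 2.60% against 7.10% and 2.02% at day 6. Their part in these values was not tested.

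In days 3 to 6 the same lists gave 6 of 15 other synthesis enzymes higher, 4 of 9 uptake genes higher, and 2 of 9 efflux genes higher and 1, Soat1, lower. Over all genes tested 15.3% were higher and 13.6% lower. Cyp51, which removes the first methyl group of lanosterol, rose by 0.57 ± 0.14, Sc4mol (Msmo1) by 0.65 ± 0.16, Hsd17b7 by 0.62 ± 0.12 and Sc5d by 0.73 ± 0.15. Npc1l1 rose by 0.80 ± 0.21, Abcg5 by 1.27 ± 0.23, Abcg8 by 0.97 ± 0.19 and Elovl6 by 0.83 ± 0.18, and Fads1 and Fads2 fell by 0.41 ± 0.11 and 0.55 ± 0.14. Srebf1 (0.08 ± 0.11, adjusted p = 0.61) did not pass. With library totals only, the rises of Abcg5 (0.88, adjusted p = 0.0037), Abcg8 (0.57, adjusted p = 0.023) and Elovl6 (0.43, adjusted p = 0.039) still passed. So did the falls of Fads1 (-0.79, edgeR adjusted p = 0.00028) and Fads2 (-0.93, adjusted p = 0.00033). The median of all genes was at -0.38 on that scale. The calls of Cyp51 (0.18, adjusted p = 0.23), Sc4mol (0.27, adjusted p = 0.13), Hsd17b7 (0.24, adjusted p = 0.14), Sc5d (0.34, adjusted p = 0.055) and Npc1l1 (0.41, adjusted p = 0.13) were lost on that scale. In the early days these lists had 0 genes past the threshold by edgeR, with 4 at an unadjusted p under 0.05. Over all genes 0.351% were then higher and 0.148% lower.

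Cell types were named from marker lists, in a clustering that left out the 62 listed sterol and fatty acid genes found in the tables, so the members did not shape the clusters. Across 9 types of untreated libraries, each with at least 20 cells, early enterocyte-like cells had the highest mean of Hmgcs1, Fdps, Fdft1, Sqle and Lss, and stem I-like cells the lowest of these 5 and of Insig1. The early enterocyte-like means come from 4 libraries of days 0 to 1 only, 1 of which also had stem I-like cells. In shared libraries early enterocyte-like cells were lower in Sqle than stem III-like ones (-0.32 on the log2 scale, higher in 1 of 4) and differed little in Fdft1 from early secretory-like ones (-0.047, higher in 1 of 3). Enterocyte-like cluster 6 had 0 markers of its own type and 1 of another among its 10 leading genes, and early Paneth-like cluster 8 had 2 and 3, so values of these merged types are descriptions. Hmgcs1 stood at 381 ± 74.4 CPM (SD, n = 4 libraries) in early enterocyte-like, 349 ± 142 (n = 4) in early secretory-like, 334 ± 64.1 (n = 8) in enteroendocrine-like, 331 ± 77.9 (n = 9) in enterocyte-like, 323 ± 119 (n = 9) in stem III-like and 322 ± 91.2 (n = 6) in early Paneth-like cells. It was lower in Paneth-like (271 ± 105, n = 5), stem II-like (241 ± 89.4, n = 9) and stem I-like cells (130 ± 37.9, n = 6). Stem I-like cells, named from Lgr5, Smoc2 and other stem cell markers, ranged only from 83.9 to 170 CPM. The means cover different libraries and days, because each type was sampled on the days it was present.

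Insig1 had the most uneven pattern. It stood at 167 ± 32.8 (n = 9) in enterocyte-like cells, 113 ± 16.5 (n = 4) in early enterocyte-like, 83.4 ± 22.5 (n = 9) in stem III-like and 59.8 to 72.3 in the Paneth-like, early Paneth-like, enteroendocrine-like, early secretory-like and stem II-like groups. Stem I-like cells were at 31.2 ± 9.72 (n = 6). In the 6 libraries with both types, enterocyte-like cells exceeded stem I-like cells in 6, by 2.44 ± 0.44 (SD) on the log2 scale. Srebf2 had the reverse end, with its lowest mean in enterocyte-like cells (68.3 ± 22.1, n = 9) and its highest in stem III-like cells (121 ± 22.3, n = 9). Stem III-like cells exceeded enterocyte-like cells in 9 of 9 libraries, by 0.88 ± 0.63. These pairs were picked as the ends of the order, so no test is given.

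Of the remaining enzymes, Fdps ranged from 24.3 ± 6.01 (n = 6) in stem I-like to 81.7 ± 28.4 (n = 4) in early enterocyte-like cells, Sqle from 105 ± 20.2 to 293 ± 57.9, Lss from 38.0 ± 7.14 to 139 ± 29.3 and Fdft1 from 45.5 ± 11.99 to 88.2 ± 27.1 between the same types. Idi1 ranged from 2.66 ± 1.99 (n = 5) in Paneth-like to 9.92 ± 5.36 (n = 9) in stem III-like cells, on a few UMIs per library. When the types were ordered by mean for each gene, 64 pairs of neighbours resulted. Their log2 difference exceeded the SD over shared libraries in 13, and in an exact sign-flip permutation test, two-sided, 0 of the 62 testable pairs passed after Benjamini-Hochberg adjustment, with 3 at an unadjusted p under 0.05 and a smallest adjusted p of 0.39. Only 27 of the 62 shared enough libraries to go under 0.05 at all, the others having a smallest possible p of 0.0625, 0.125 or 0.25, so the test says little about which neighbours differ. In 49 pairs the difference lay within that spread, so most neighbours in the order were not set apart by more than their spread.

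**Figure D4:**
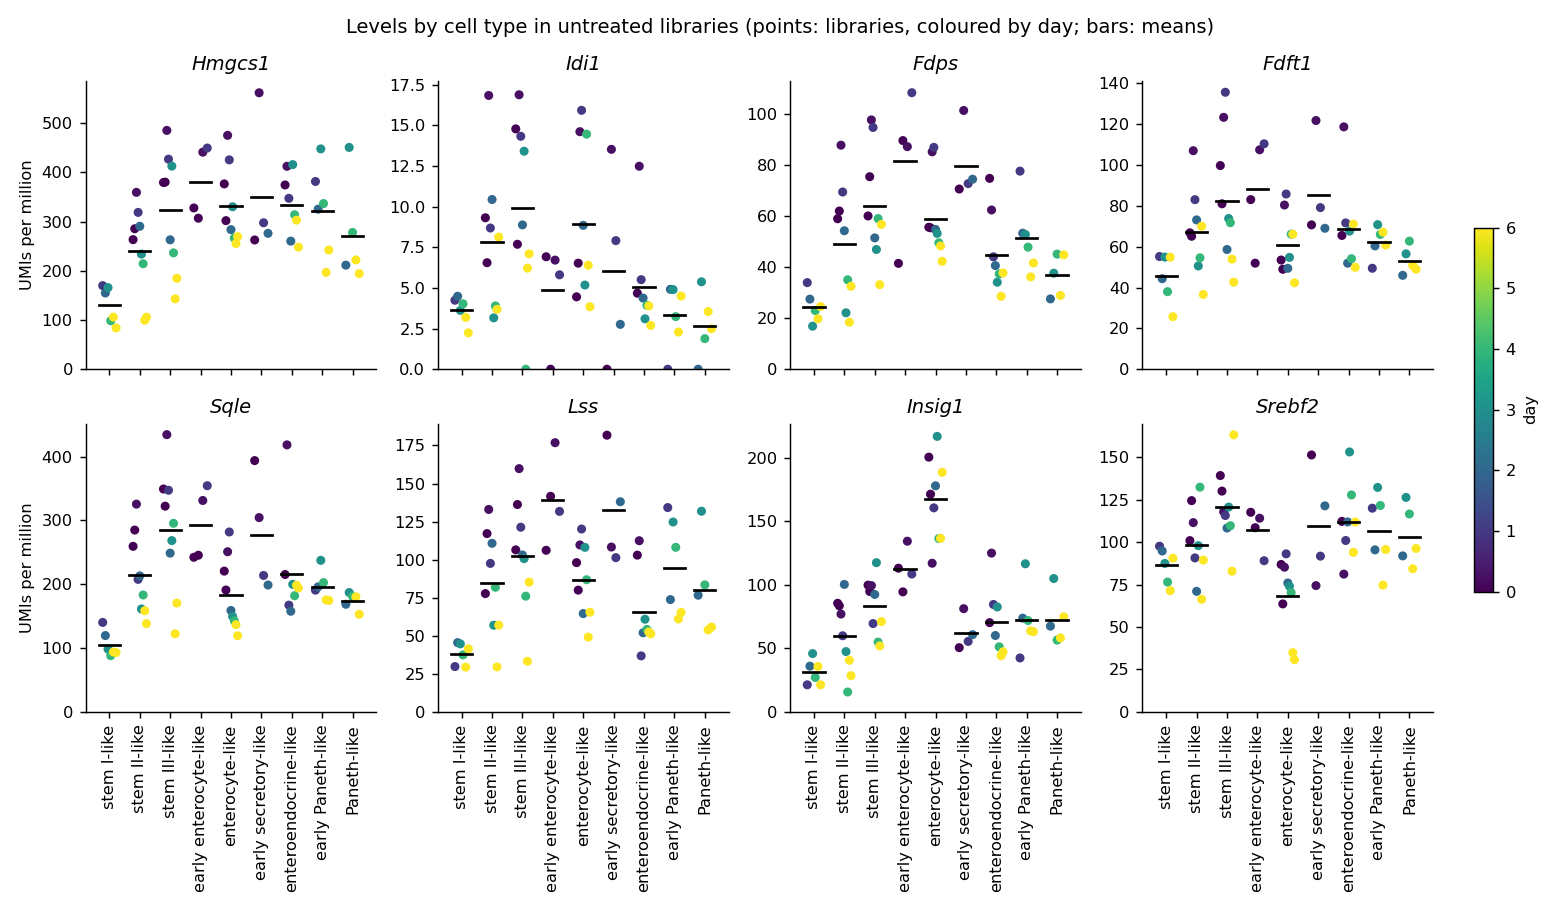
CPM (vertical axes, from 0) of the 8 genes in 9 marker-named cell types of untreated libraries (horizontal axes); each point is the sum over the cells of that type in 1 library, coloured by day, and bars are means. Stem I-like cells lie at the bottom for Hmgcs1 (mean 130) and Insig1 (31.2), and enterocyte-like cells at the top for Insig1 (167).

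Levels of Hmgcs1 and Sqle were also lower at day 6 inside 2 of the types, stem II-like and stem III-like. In stem II-like cells Hmgcs1 had 263 and 285 CPM in the day 0 libraries and 99.5 and 106 at day 6, and in stem III-like cells 379 and 380 against 143 and 185. In both types the libraries of the 2 days did not overlap. Sqle followed with 259 and 285 against 158 and 138 in stem II-like and 349 and 322 against 122 and 170 in stem III-like cells. These are descriptions of 2 libraries a day, with 31 to 667 cells each, and no test was made. Enterocyte-like cells also had at least 20 cells in both libraries of each day, and their values by day are not given. Over the 9 untreated libraries they ranged from 255 to 475 CPM for Hmgcs1 and from 119 to 282 for Sqle. Values by day within types are not given for the other members either.

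KPT-330 was then compared with control inside each type with at least 20 cells in both conditions on at least 4 days. Because of those 2 clusters, early Paneth-like and enterocyte-like cells were compared by cluster. Stem I-like, stem III-like and enteroendocrine-like cells also joined 2 clusters each and were fitted merged. In stem I-like cells 536 of 2036 cells of cluster 2 were treated, against 140 of 314 of cluster s2. In enteroendocrine-like cells 351 of 1272 of cluster 7 were treated, against 510 of 1156 of cluster 10. The part of these mixtures in the merged values was not tested. Stem I-like cells had 7 members tested, of which 1 fell and 0 rose, against 1.67% of 9294 genes lower and 2.63% higher. The gene was Hmgcs1, with a lowest, median and highest level of 54.5, 94.995 and 156 CPM in 6 treated libraries and 83.9, 130 and 170 in 6 control libraries. The ranges overlapped, and the log2 difference given day was -0.48 ± 0.14 (edgeR adjusted p = 0.040). All 7 values were below 0, with a median of -0.14. In stem II-like cells, added after the data were seen since it had 3 such days, 1 of 8 members fell and 0 rose, against 0.435% of 9190 genes lower and 0.914% higher. Hmgcs1 again was the gene, at 171, 218 and 236 CPM with KPT-330 and 290, 319 and 359 in the controls, without overlap, for -0.60 ± 0.13 (adjusted p = 0.013). The stem I-like call was lost without day 2, day 3 or day 4, without day 3 KPT-330 replicate 2, or with cells labelled by their highest marker score, and the stem II-like call without day 0.25 or day 1. The stem II-like fit was not repeated with labels from the marker score, under which 56.52% of these cells kept their label. Among the 10 leading genes of the stem II-like cluster, 1 was a marker of its type. The DNA replication genes Mcm3, Mcm5 and Mcm6 were also among them.

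In the other types 0 members passed in either direction by edgeR. Stem III-like cells, also added after the data were seen, had 0 of 8 (0.460% of genes higher, 0.368% lower), with 2 values below 0 at an unadjusted p under 0.05 and a median of -0.25. Enterocyte-like cells were compared in 2 clusters. Cluster 6 had 0 of 8 (0.713% higher, 0.738% lower), with 1 below 0 at an unadjusted p under 0.05. Cluster 9 had 0 of 7 (0.948% higher, 1.51% lower), none at that p. Enteroendocrine-like cells had 0 of 7 (0.870% higher, 1.15% lower), with 1 below 0 at that p. Early Paneth-like cluster 5 had 0 of 7 (1.77% higher, 1.08% lower), none at that p, and cluster 8 had 0 of 7 (1.11% higher, 0.807% lower), with 3 above 0 at that p. Paneth-like cells had 0 of 8 (0.780% higher, 0.791% lower), with 5 above 0 at that p.

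In Paneth-like cells all 8 members were above 0, with a median of 0.30 on the log2 scale, and in early Paneth-like cluster 8 all 7 were, with a median of 0.36. In enteroendocrine-like cells 6 of 7 were above 0, with a median of 0.18, and in early Paneth-like cluster 5 also 6 of 7, with a median of 0.11. Hmgcs1 itself was at -0.32 ± 0.15 in enterocyte-like cluster 6, -0.30 ± 0.12 in enteroendocrine-like, -0.28 ± 0.14 in stem III-like, -0.16 ± 0.14 in enterocyte-like cluster 9, -0.07 ± 0.12 in early Paneth-like cluster 5 and 0.11 ± 0.13 in Paneth-like cells. Differences between types in the response were not tested. For the fits within types, the shares of all genes above 0, or at an unadjusted p under 0.05, are not given. Counts of members by these measures therefore have no background to be read against. On library totals only, the Paneth-like value of Hmgcs1 was -0.016 and that of early Paneth-like cluster 8 was -0.013. Values of the other members within types are not given on that scale.

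**Figure D5:**
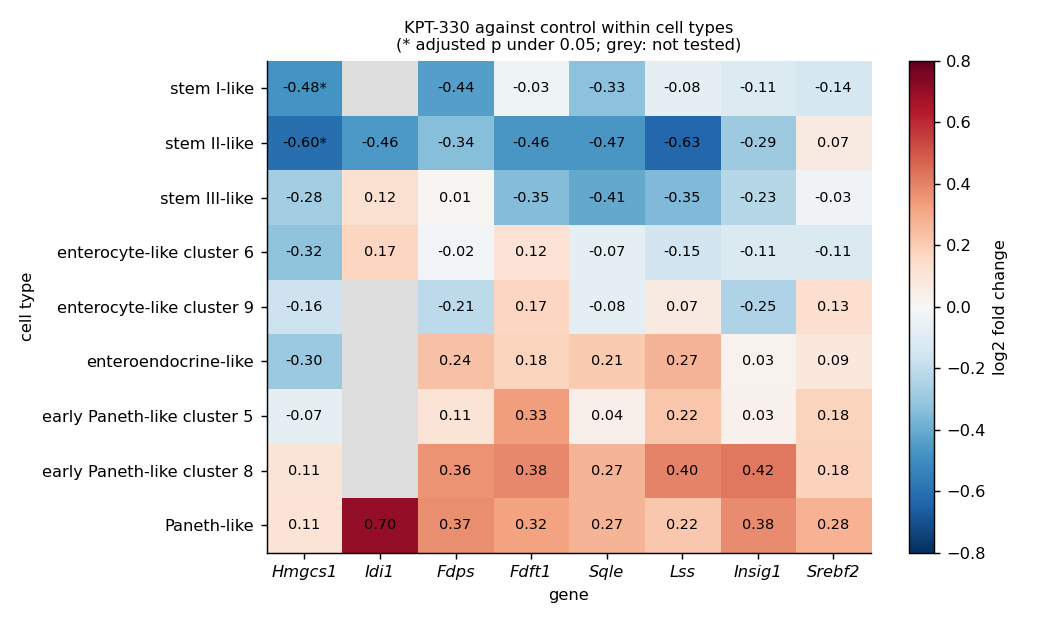
Log2 fold change of KPT-330 against control (colour and printed value) for the 8 genes (columns) within 9 marker-named clusters or types (rows), from edgeR on summed counts with day as a term; an asterisk marks an adjusted p under 0.05 and grey cells were not tested. The 2 asterisks are Hmgcs1 in stem I-like (-0.48) and stem II-like cells (-0.60).

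Across the 17 libraries the levels of the enzymes varied together. Pearson's r of log2 levels between pairs of enzymes ran from 0.72 (Hmgcs1 and Idi1) to 0.92 (Idi1 and Fdps), and Hmgcs1 and Lss reached 0.90. With Srebf2 the enzymes' r was 0.19 (Fdft1) to 0.62 (Lss), and with Insig1 0.28 (Fdps) to 0.57 (Hmgcs1). The libraries share their days and media, so these are descriptions with no test. After day and treatment were taken out of the 15 differentiation libraries, pairs of enzymes ran from 0.343 (Hmgcs1 and Fdps) to 0.915 (Hmgcs1 and Lss), with Hmgcs1 and Idi1 at 0.357, Idi1 and Lss at 0.368 and Fdps and Fdft1 at 0.393. Hmgcs1 and Insig1 were at 0.836. Among 13455 genes, the 10 whose log2 level followed the mean profile of the 6 enzymes most closely over the 17 libraries were Cyp51 (r = 0.94), Dld (0.92), Cox10 (0.91), Stt3b (0.91), Mcoln2 (0.90), Stard7 (0.90), Echs1 (0.90), Cebpa (0.90), Mvk (0.90) and Mcu (0.90). Cyp51 and Mvk are themselves enzymes of the pathway, lanosterol demethylase and mevalonate kinase. Srebf2 followed the profile with r = 0.48 and Insig1 with 0.44. High values were common over these libraries. Outside the 6 enzymes, Lbr at rank 213 still had r = 0.83 and Fnta at rank 1540 had 0.71.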

How the data were processed

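Single-cell libraries of mouse small intestinal organoids were analysed from the digital expression tables, 1 per library. The deposited values were counts, whole UMIs per gene and cell, that the authors obtained with bcl2fastq, STAR, the mm10 genome and the Drop-seq pipeline, without normalization, and every column could be mapped to a library. Cells were those listed in the authors' merged table, which they had filtered on genes, UMIs and mitochondrial share and cleared of doublets with DoubletFinder. No further doublet caller was run here. Genes in the tables are named by symbol, and positions come from the GENCODE annotation of mm10.

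Counts were summed over the cells of a library, or of a type in a library, and tested with edgeR 4.0.16 (filterByExpr, TMM, quasi-likelihood F-test). The p-values were adjusted by Benjamini-Hochberg across every tested gene. The tests of KPT-330 had day as a term. The tests of untreated days used a model of all 17 libraries with 1 mean for each day and condition, and no other term. DESeq2 1.42.0 and limma 3.58.1 served as alternatives, and the scripts were tested on simulated data. The SE of a log2 fold change was its size over the square root of F. Levels in CPM (UMIs per 1000000 kept UMIs of the library) carry counting error. Cells were clustered with Seurat 5.3.0 (sctransform 0.4.2, 9 components, Louvain resolution 0.45) without the 62 listed sterol and fatty acid genes found in the tables, and types were named from 10 markers each. A type entered with at least 20 cells per library. The log2 levels of types and of likeness had 1 CPM added.

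The members, lists, markers and tests were chosen with earlier results of these data known. Beside the 8 members, listed genes were named when their adjusted p was under 0.05, at most the 12 with the smallest p, and Srebf1 always. A few genes that the rule names are not reported here. The genes named to complete counts of 5 or fewer (Abca1, Abcg8 at day 6, Npc2, Stard4 at day 6, Insig2 and Soat1) were chosen after their values were seen. Likeness gave the 10 highest Pearson correlations with the mean z-score of the 6 enzymes. The alternatives covered scaling, the filter on low counts, the tool, the cells kept, cell labels, clustering, left-out libraries and days, and the replicate number as a block.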

Additional observations from a re-analysis of the deposited data

How the results depend on the processing

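For KPT-330 over the whole course, the genes raised numbered 1841 with TMM, 470 with library totals only, 1081 with totals that leave out the 100 most abundant genes and 353 with limma on mean log values of cells, and those lowered 1820, 4900, 2818 and 5860. The count of members raised, 1 with TMM, was 0 with each of these 3, with DESeq2, with all barcodes within the limits and without Paneth-like cells, and 4 with no filter on low counts. With library totals only the log2 differences of Hmgcs1, Sqle, Srebf2, Srebf1 and Nsdhl turned to -0.20, -0.12, -0.025, -0.22 and -0.040. With limma those of Hmgcs1, Idi1, Fdps, Fdft1, Sqle, Lss, Srebf2, Srebf1 and Nsdhl were -0.19, -0.00069, -0.023, -0.030, -0.12, -0.031, -0.042, -0.12 and -0.025. Without the 100 most abundant genes in the totals Hmgcs1 and Srebf1 were at -0.043 and -0.070. The median of all genes was at -0.27 with library totals and -0.12 without the 100 most abundant genes, and the cause was not tested. Over left-out libraries and days (left-out samples) the genes raised ranged from 1120 to 2057, those lowered from 972 to 1999, the members raised from 0 to 7 and Hmgcs1 from -0.091 to 0.19.

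For days 3 to 6, 1956 genes rose with TMM, 381 with library totals and 1014 without the 100 most abundant genes in them, and 1747, 5621 and 2875 fell. The members raised were 6, 0 and 2, and 3 without Paneth-like cells. Hmgcs1 and Srebf1 turned to -0.097 and -0.29 with library totals, and Srebf1 to -0.085 without the 100 most abundant genes. Over left-out samples these counts ranged from 993 to 2527, from 957 to 2055 and from 2 to 6. For days 0.25 to 2, 45 genes rose, against 333 with no filter, 113 with DESeq2, 24 without Paneth-like cells and 19 with library totals, and 19 fell, against 355, 66, 9 and 32, and 29 with the replicate block. With library totals Insig1 and Srebf2 were at -0.035 and -0.062. Over left-out samples 7 to 16 genes rose and 0 to 8 fell, and the log2 differences ranged from -0.47 to 0.024 for Hmgcs1, -0.13 to 0.068 for Fdps, -0.25 to 0.30 for Fdft1, -0.48 to 0.18 for Sqle, -0.26 to 0.26 for Lss, -0.17 to 0.41 for Insig1, -0.039 to 0.13 for Srebf2 and -0.054 to 0.0082 for Srebf1. For early minus late, 0 genes rose, against 191 with no filter, 41 with DESeq2, 1 with library totals and 0 to 32 over left-out samples, and 0 fell, against 158, 15, 0 and 0 to 132. Srebf1 turned to 0.18 with library totals and to 0.037 without the 100 most abundant genes.

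Between day 6 and day 0, Srebf1 was at -0.085 with library totals. Over left-out libraries 1629 to 2841 genes and 2 to 6 members fell, and Srebf1 ranged from -0.12 to 0.19. Within types Hmgcs1 turned to -0.013 in early Paneth-like cluster 8 and to -0.016 in Paneth-like cells with library totals, and to -0.0039 in the latter with at least 50 cells. Over left-out samples it ranged from -0.13 to 0.014 in early Paneth-like cluster 5, -0.30 to 0.031 in enterocyte-like cluster 9 and -0.0039 to 0.21 in Paneth-like cells. The members lowered went from 1 to 0 in stem I-like cells with cells labelled by their highest marker score, from 1 to 2 in stem II-like cells with library totals, and ranged from 0 to 1 over left-out samples in all 3 stem-like types. The neighbouring types that differed by more than their spread were 13, against 20 with labels from the highest marker score and 21 at resolution 0.8.

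The replicate numbers were not shown to pair samples across days, while at day 6 the 2 conditions shared part of the difference between replicates 1 and 2. The difference of replicate 1 from replicate 2 correlated over genes at 0.434 between day 6 control and day 6 KPT-330. Between day 6 control and day 0 it correlated at 0.118. What the day 6 libraries of the same number share is not known. With the replicate block 1 member rose over the whole course, 6 rose in days 3 to 6 and 6 fell between day 0 and day 6, as without it, and 5 in place of 6 differed among the untreated days. Depth, chiefly for Idi1, and days with 1 library per condition limit the rest.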
